A study of Homo sapiens with 72 samples.

Results

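Tubulin genes encode the alpha and beta subunits of the dimer from which microtubules are built. The mRNA levels of 10 of them were examined here, the 4 alpha genes TUBA1A, TUBA1B, TUBA1C and TUBA4A and the 6 beta genes TUBB, TUBB2A, TUBB2B, TUBB3, TUBB4B and TUBB6. They were chosen by name, with earlier results of these data known. All 10 were found among the 60371 genes of the files once Ensembl identifiers were paired with symbols. The data were population RNA-seq libraries of U2OS, a human osteosarcoma cell line, from 72 wells of multi-well plates. Of these, 18 wells received DMSO, the solvent, and the other wells received 1 of 6 compounds at 100, 1000 or 10000 nM, with 3 wells for each compound and dose, all for 12 h. Triptolide blocks transcription by RNA polymerase II and homoharringtonine blocks translation elongation at the ribosome. The other compounds were pyrazolanthrone, a JNK inhibitor, nilotinib, a tyrosine kinase inhibitor, MK-2206, an AKT inhibitor, and miglitol, an alpha-glucosidase inhibitor. All wells held the same cell line with no stated genetic change, and nothing in the labels says that the wells of a group came from separate cultures, so the p-values measure only the spread between wells.

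The depth of the libraries, as the sum of expected counts, ranged from 70767 to 68296309, and 3 libraries stood apart as shallow. These were triptolide 100 nM replicate 2 with 70767, DMSO replicate 10 with 460014 and triptolide 1000 nM replicate 1 with 9628355. The markers of the line were as its label says for 3 genes, since VIM averaged 1842 TPM in DMSO, SPARC 2144 TPM and COL1A1 456 TPM, while RUNX2 (3.91 TPM), ALPL (4.08 TPM) and COL1A2 (0.0889 TPM) were as low as markers of other cell types. The summed level of the epithelial markers EPCAM and CDH1 was at most 4.38 TPM in DMSO, and that of 4 neuronal markers 4.45 to 12.4 TPM. The summed level of the 6 mesenchymal and bone markers was 3640.2 to 5258 TPM in DMSO, 1248 to 1306 TPM with homoharringtonine at 10000 nM, where 5 of 6 were lower, and 5794 to 7060 TPM with triptolide at 10000 nM, where 5 were higher and 1 lower. The part of these shifts in the tubulin results was not tested.

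Cells adjust the stability of their tubulin mRNAs to the pool of free tubulin dimers. When free dimers accumulate, the factor TTC5 recognizes the beginning of a tubulin chain as it leaves the ribosome, and SCAPER and the CCR4-NOT deadenylase then degrade the mRNA that is being translated. The response therefore needs ongoing translation, and it acts on mRNAs already made rather than on transcription. Microtubules themselves serve cell division, transport and cell shape, and cultured cells express several isotypes of each subunit from separate genes.

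The stretch that carries the recognition signal is the start of the coding sequence, and it is shown for 6 of the 10 genes. Whether this stretch or the decay pathway takes part in any difference given below was not tested. Given are the first 30 coding bases of the main transcript of each gene (GENCODE release 44, GRCh38, spliced, coding strand), with the first 4 codons in capitals.
TUBA1B: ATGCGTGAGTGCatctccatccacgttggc
TUBA4A: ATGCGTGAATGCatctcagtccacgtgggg
TUBB: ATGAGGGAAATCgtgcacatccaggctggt
TUBB4B: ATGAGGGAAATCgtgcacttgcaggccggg
TUBB6: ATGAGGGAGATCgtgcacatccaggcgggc
TUBB2A: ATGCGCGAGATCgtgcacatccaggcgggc
TUBB, a gene of 4 exons at chr6:30717435-30725538 on the plus strand, and TUBB4B at chr9:137241287-137243707 on the plus strand had the same 12 capital bases. TUBB6 at chr18:12307669-12344320 on the plus strand and TUBB2A at chr6:3153497-3157544 on the minus strand differed from them in synonymous positions. TUBA1B at chr12:49127782-49131397 and TUBA4A at chr2:219249710-219277902, both on the minus strand, held the alpha form, in which codon 4 was TGC and not ATC. All 4 alpha genes had TGC and all 6 beta genes ATC at codon 4.

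The coding sequences are close enough that reads can match more than 1 gene, and RSEM divides such reads by its own estimate. Identity between the coding sequences was 84.4 to 97.2% within the alpha family, with shared runs of up to 326 bases, and 80.9 to 98.2% within the beta family, the highest value and a run of 725 bases belonging to TUBB2A and TUBB2B. Values of TUBA1A, TUBA1B and TUBA1C, and of TUBB2A and TUBB2B, are therefore uncertain where the counting could split reads among them. The same limit applies to TUBB3, with shared runs of 185 bases with TUBB2A and with TUBB2B. It applies also to TUBB4B, with runs of 143 bases with TUBB2A and with TUBB2B and of 140 bases with TUBB3. Between an alpha and a beta gene, identity was 54.8 to 57.4% and no shared run was longer than 19 bases. TUBA1A and TUBA1C overlap by 345 bases on opposite strands, and a read-through gene covers TUBB3 on its own strand, but its own level was at most 6.57 TPM in DMSO and 2.18 to 3.03 TPM with homoharringtonine at 10000 nM. The library kit keeps the strand, and whether the counting used it is not given in the sources used here.

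In DMSO wells, TUBA1B had the highest level per length at 4199 ± 445 TPM (SD, n = 18), followed by TUBA1C at 2318 ± 359 TPM, TUBB at 1987 ± 151 TPM and TUBB4B at 1341 ± 115 TPM. The place of TUBA1C depends on its length. RSEM gave it a mean of 1036.5 bases in DMSO, less than its coding sequence of 1347 and its main transcript of 2823 bases. For TUBB the mean length was 2669.9 bases. TUBA1B and TUBA1C are the widely expressed alpha genes of dividing cells, and TUBB and TUBB4B are broadly expressed beta isotypes. TUBB6 averaged 422 ± 53.8 TPM, TUBB3, best known as the neuronal beta isotype, 235 ± 34.1 TPM, and TUBA1A, an alpha gene prominent in the developing brain, 152 ± 18.2 TPM. TUBB2B averaged 119 ± 19.3 TPM, TUBB2A 93.3 ± 17.7 TPM and TUBA4A 23.8 ± 3.19 TPM. Neighbours in this order overlapped between wells for TUBA1C and TUBB, TUBB and TUBB4B, TUBA1A and TUBB2B, and TUBB2B and TUBB2A, and the other neighbours did not. Without the shallow DMSO well, the ranges of TUBB (1858 to 2147 TPM) and TUBB4B (1139 to 1502 TPM) did not overlap. The 10 genes together made up 1.09 ± 0.0944% of all TPM in DMSO.

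**Figure D1:**
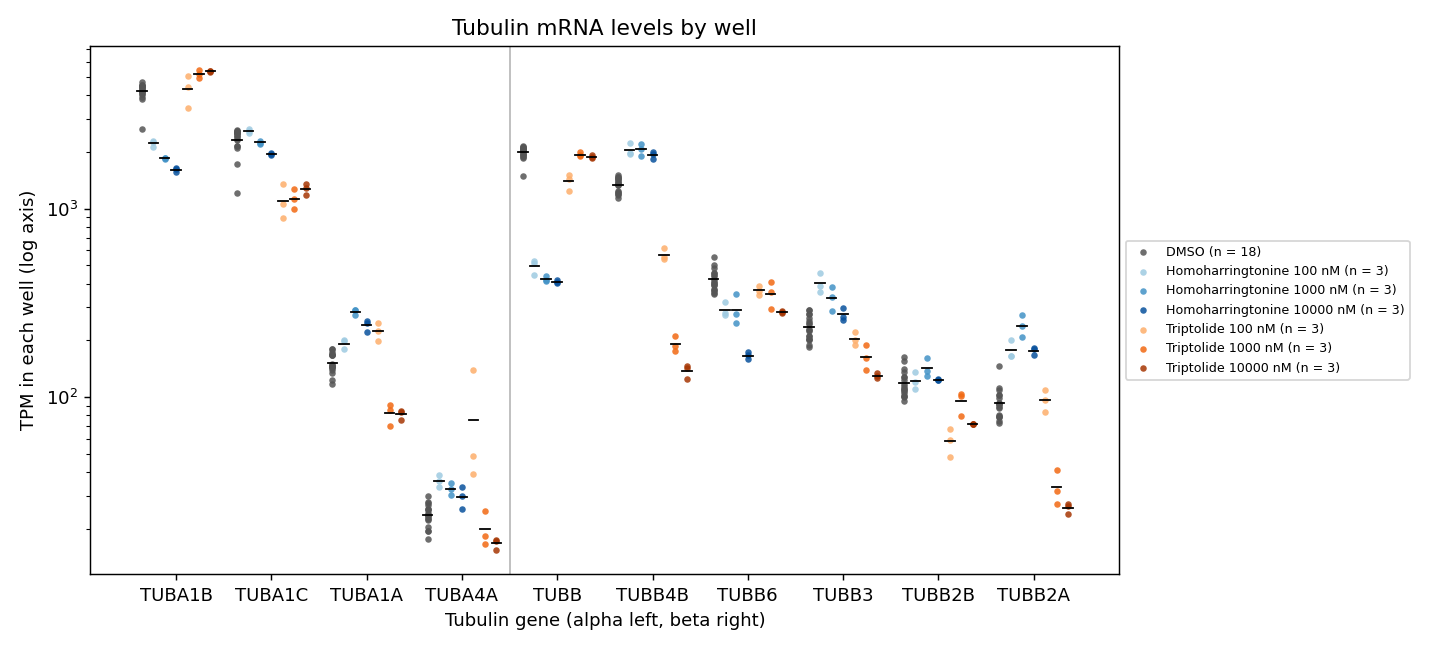
TPM of each of the 10 tubulin genes in every well (log axis), for DMSO and for the 3 doses of homoharringtonine and of triptolide. Points are wells and black bars are means. TUBB sits between 403 and 529 TPM in all 9 homoharringtonine wells, under every DMSO well, and TUBB4B sits under every DMSO well in all 9 triptolide wells.

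The comparison of homoharringtonine with DMSO asks how the tubulin mRNAs stand when translation is blocked. TUBA1B and TUBB, the genes with the highest level of each family in DMSO, fell at every dose, as did TUBB6. TUBB4B, the second beta gene by level, rose at every dose, as did TUBB2A, TUBA1A and TUBA4A. TUBB was between 1487 and 2147 TPM in DMSO wells, with a median of 2026 TPM. Its 3 wells were at 446, 513 and 529 TPM with 100 nM, at 413, 418 and 441 TPM with 1000 nM and at 403, 409.7 and 417 TPM with 10000 nM. No treated well overlapped the DMSO wells. The log2 fold change, on counts scaled by TMM to the bulk of the transcriptome, was -1.76 ± 0.12 (SE) with 100 nM, -2.14 ± 0.125 with 1000 nM and -2.35 ± 0.11 with 10000 nM, or 0.296, 0.226 and 0.197 of the DMSO level (edgeR quasi-likelihood test, 3 wells against 18, adjusted p = 5.8e-12, 2.3e-13 and 5.5e-15). TUBB fell in all 12 alternative fits at each dose, those with other scalings included.

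TUBA1B was at 2664 to 4678 TPM in DMSO with a median of 4246 TPM, and its lowest value came from the shallow well, without which the lowest was 3809 TPM. With homoharringtonine its 3 wells were at 2131, 2263 and 2295 TPM (100 nM), 1830.1, 1856 and 1856 TPM (1000 nM) and 1561.5, 1631 and 1643 TPM (10000 nM). All 9 treated wells lay below the DMSO wells. The log2 fold change was -0.67 ± 0.14, -1.11 ± 0.14 and -1.46 ± 0.14 (SE, edgeR, adjusted p = 1.3e-04, 2e-07 and 1.2e-09). TUBB6 was at 354 to 553 TPM in DMSO and at 272, 279 and 319 TPM, at 246, 275 and 354 TPM, and at 158, 167 and 173 TPM with the rising doses. It fell at each dose, with log2 fold changes of -0.36 ± 0.13, -0.52 ± 0.14 and -1.49 ± 0.13 (edgeR, adjusted p = 0.016, 0.0017 and 1.4e-10). At 100 nM this call was lost without replicate 1 or without replicate 2 of the compound, where the values were -0.32 and -0.30.

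TUBB4B moved in the opposite direction to TUBB. It was at 1139 to 1502 TPM in DMSO with a median of 1358 TPM. Its 3 wells were at 1947, 1971 and 2227.5 TPM with 100 nM homoharringtonine, at 1906, 2081 and 2213 TPM with 1000 nM and at 1844, 1953 and 1989.5 TPM with 10000 nM, all above the DMSO wells. It rose by a log2 fold change of 0.86 ± 0.10, 0.71 ± 0.11 and 0.45 ± 0.09 (edgeR, adjusted p = 8.6e-08, 2.7e-06 and 1.4e-04). TUBB2A also rose at each dose. It was at 73.2 to 147 TPM in DMSO and at 165, 166 and 201 TPM, at 208, 237 and 271 TPM, and at 167, 179 and 183 TPM with the rising doses. Its log2 fold changes were 1.19 ± 0.14, 1.46 ± 0.14 and 0.86 ± 0.13 (edgeR, adjusted p = 4.2e-08, 1.5e-09 and 1.7e-06). The highest DMSO value of TUBB2A came from the shallow well, and without it the highest was 111 TPM.

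Among the remaining genes, TUBA1A rose by log2 fold changes of 0.58, 1.01 and 0.65 and TUBA4A by 0.75, 0.61 and 0.35 with the rising doses of homoharringtonine (edgeR, adjusted p of 0.0094 or less). For TUBA4A at 10000 nM the call was lost without replicate 1, where the log2 fold change was 0.29. TUBB3 rose with 100 nM and 1000 nM, by 0.99 and 0.56, and its log2 fold change with 10000 nM was 0.08 (adjusted p = 0.57). TUBA1C rose by 0.36 with 100 nM, had a log2 fold change of 0.03 with 1000 nM (adjusted p = 0.86) and fell by 0.33 with 10000 nM (adjusted p = 0.044). Both TUBA1C calls were lost in most alternative fits, among them those without replicate 2 (0.38 with 100 nM and -0.34 with 10000 nM) or replicate 3 (0.29 and -0.32) and, with 10000 nM, without replicate 1 (-0.35). TUBB2B passed the test only with 1000 nM, at 0.36, a call lost without replicate 1 (0.18).

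In all, 6 tubulin genes were higher and 3 lower with 100 nM homoharringtonine, where 31.1% of all genes tested were higher and 32.3% lower. With 1000 nM the counts were also 6 and 3, beside 35.0% and 33.4% of all genes. With 10000 nM they were 4 and 4, beside 36.7% and 37.2%. Scaled to the mitochondrial mRNAs, the 9, 9 and 8 called genes became 5, 4 and 3. The median log2 fold change of the 10 genes was 0.47, 0.46 and 0.04 with the rising doses, against -0.03, -0.01 and -0.05 over all genes tested. The GC content of the mRNAs differed between the wells: the slope of log2 CPM (library-scaled counts) on each 10 points of GC was -0.32 to -0.18 with 10000 nM homoharringtonine against -0.12 to 0.61 in DMSO. With that slope as a covariate, TUBB at 10000 nM remained lower, while TUBB3 passed the test at 0.58 and TUBB2B at 0.41. Of the 10 main transcripts, TUBB3 has the highest GC content, 62.2%.

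**Figure D2:**
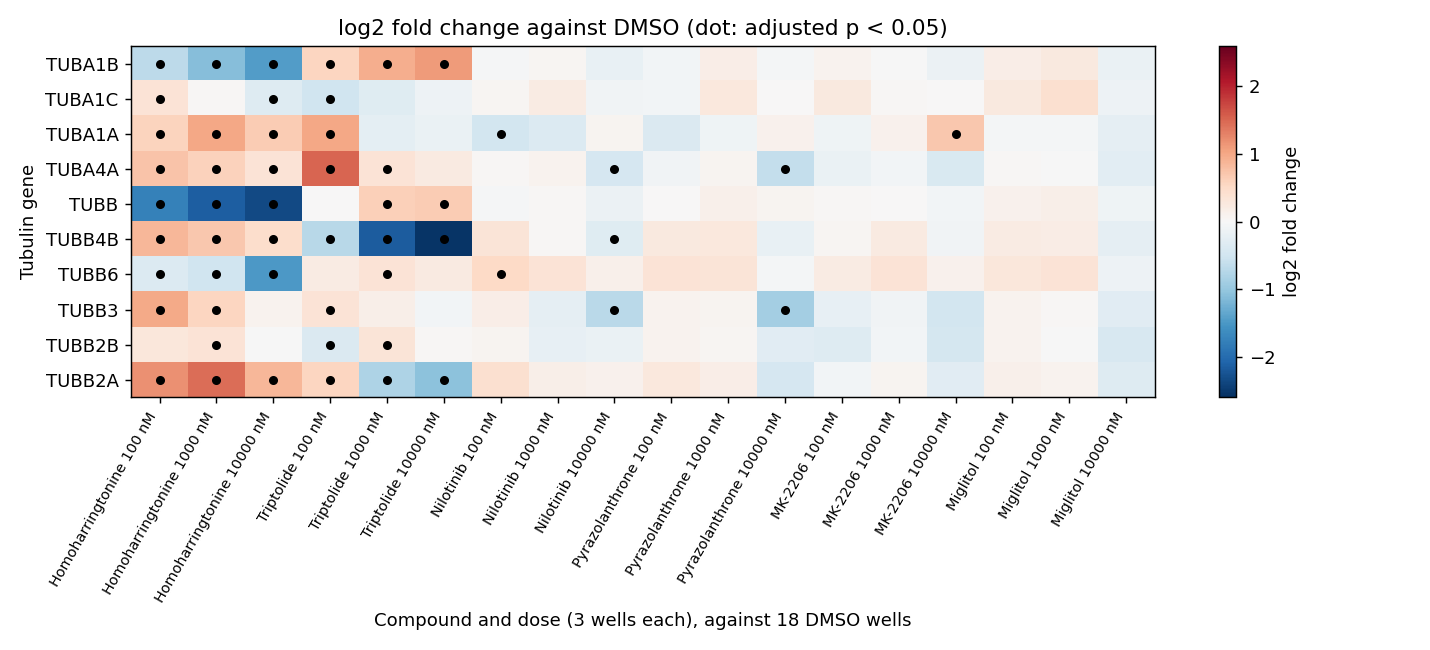
log2 fold change against DMSO (colour) of the 10 tubulin genes for 6 compounds at 3 doses, each 3 wells against the same 18 DMSO wells, on TMM-scaled counts. Dots mark an adjusted p under 0.05. The homoharringtonine and triptolide columns hold most dots, TUBB reaches -2.35 with homoharringtonine and TUBB4B reaches -2.54 with triptolide.

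The comparison of triptolide with DMSO asks how the levels stand when transcription is blocked. TUBB4B had the lowest log2 fold change of the 10 genes at each dose. Its 3 wells were at 538, 555 and 616 TPM with 100 nM, at 176, 187 and 211 TPM with 1000 nM and at 125, 142 and 146 TPM with 10000 nM, all below the DMSO wells. The log2 fold change was -0.71 ± 0.12, -2.16 ± 0.13 and -2.54 ± 0.13 (SE, edgeR, adjusted p = 2.4e-05, 2.3e-13 and 9e-15), and at 10000 nM the level was 0.172 of that in DMSO. TUBB4B fell in all 12 alternative fits at each dose. TUBB2A fell at the higher doses, where its wells were at 27.0, 31.6 and 41.0 TPM (1000 nM) and 23.9, 26.5 and 27.2 TPM (10000 nM). Its log2 fold changes there were -0.81 ± 0.16 and -1.07 ± 0.16 (edgeR, adjusted p = 1.2e-04 and 1.3e-06). At 100 nM TUBB2A was higher on TMM-scaled counts, at 0.56 ± 0.16 (edgeR, adjusted p = 0.0038), but not clearly so in TPM. Its mean there was 96.35 TPM against 93.3 in DMSO, and 89.98 against 90.1 without the shallow libraries. The value at 100 nM reversed with at least 10 counts in every well (-0.12) and when scaled to the mitochondrial mRNAs (-1.06).

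TUBA1B was at 3443, 4418 and 5060 TPM with 100 nM triptolide, at 4921, 5202 and 5449 TPM with 1000 nM and at 5342, 5389 and 5405 TPM with 10000 nM. The wells of the higher doses lay above all DMSO wells. On TMM-scaled counts the log2 fold change was 0.56 ± 0.14, 0.95 ± 0.12 and 1.10 ± 0.12 (edgeR, adjusted p = 0.0019, 1.5e-07 and 8.1e-09). With all wells, TUBB overlapped the DMSO wells at each dose, with 1241, 1444 and 1513 TPM at 100 nM, 1901, 1924.5 and 1989 TPM at 1000 nM and 1849, 1886 and 1918 TPM at 10000 nM. At 100 nM the overlap came from the shallow DMSO well alone, and without the shallow libraries TUBB was at 1444 to 1513 TPM, below the DMSO range of 1858 to 2147 TPM. On TMM-scaled counts its log2 fold change was 0.00 at 100 nM (adjusted p = 0.98), 0.62 ± 0.10 at 1000 nM and 0.67 ± 0.10 at 10000 nM (edgeR, adjusted p = 5.9e-06 and 1.3e-06). At 100 nM TUBB was called lower in 4 alternative fits, at -0.23 with library sizes only, -0.64 with at least 10 counts in every well, -0.51 on log2(TPM + 1) and -1.54 when scaled to the mitochondrial mRNAs. Both genes were lower than in DMSO at all 3 doses on that last scale.

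At 100 nM triptolide, TUBA4A and TUBA1A were higher, with log2 fold changes of 1.52 and 1.01, and at 10000 nM their log2 fold changes were 0.23 and -0.18 (adjusted p = 0.098 and 0.18). The TUBA1A wells were at 198, 224 and 248 TPM with 100 nM, above the DMSO range of 118 to 179.7 TPM, and at 75.6, 83.1 and 84.1 TPM with 10000 nM, below it, so that TPM and TMM-scaled counts placed the 10000 nM wells differently. In the shallow well of the 100 nM group, TUBA4A rested on 5 expected counts and TUBB on 211. Without the shallow libraries, TUBA4A and TUBA1A at 100 nM were still called, at 1.55 and 1.04, while TUBB2B was not (-0.31). TUBA1C fell at 100 nM by 0.52 (adjusted p = 0.01), a call lost without replicate 3 (-0.34). TUBB2B (-0.38) and TUBB3 (0.36) passed at 100 nM with adjusted p = 0.042 and 0.047. The TUBB2B call was lost without any one of the replicates (-0.43 to -0.32), and that of TUBB3 without replicate 1 (0.34) or 3 (0.31). At 1000 nM, TUBA4A (0.35), TUBB2B (0.33) and TUBB6 (0.36) were called higher on TMM-scaled counts. All 3 turned lower with library sizes only (-0.10, -0.12 and -0.09), on log2(TPM + 1) (-0.25, -0.32 and -0.26) and when scaled to the mitochondrial mRNAs (-2.13, -2.13 and -2.11), and their mean TPM was below that of DMSO.

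In all, 5 tubulin genes were higher and 3 lower with 100 nM triptolide, where 24.5% of all genes tested were higher and 32.3% lower. With 1000 nM they were 5 and 2, beside 28.8% and 38.6%, and with 10000 nM 2 and 2, beside 32.2% and 39.7%. The median log2 fold change of the 10 genes was 0.29, 0.25 and -0.03 against -0.16, -0.21 and -0.17 over all genes tested. Homoharringtonine and triptolide were compared with the same 18 DMSO wells, so their values against DMSO share those wells.

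The direction of several triptolide values depended on the scale. Triptolide wells held 1.01 to 1.15% of their counts on the 13 mitochondrially encoded mRNAs at 10000 nM, against 0.138 to 0.367% in DMSO. Scaled to those mRNAs, the median of all genes at 10000 nM moved from -0.17 to -2.92 and all 10 tubulin genes were lower than in DMSO, TUBA1B by -1.70 and TUBB by -2.13. Scaled by library size only, the median was -0.70 and the log2 fold change of TUBB was 0.13, no longer past the test, while TUBA1B was at 0.57. On log2(TPM + 1) the values of TUBB and TUBA1B were -0.07 and 0.37. Relative to the median of all genes, TUBB at 10000 nM stood 0.83 higher with TMM, 0.83 with library sizes, 0.79 with the mitochondrial mRNAs and 0.56 on log2(TPM + 1). TUBA1B stood 1.27, 1.27 and 1.22 above the median on the first 3 of these scales, and TUBB4B at -2.375, -2.38 and -2.435. Bulk libraries cannot tell fewer cells from less mRNA in each cell, and they do not give an absolute amount of mRNA.

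Homoharringtonine and triptolide were then set against each other at matched doses, without the DMSO wells. At 10000 nM, TUBB was lower with homoharringtonine by a log2 value of -3.10 ± 0.06 (SE) and TUBA1B by -2.65 ± 0.06, and TUBB4B was higher by 2.90 ± 0.07 (edgeR, adjusted p = 1.7e-11, 3.2e-11 and 5.6e-11). TUBB2A was higher by 1.85 and TUBB6 lower by -1.82. At 1000 nM the values of these 5 genes were -2.75, -2.06, 2.88, 2.28 and -0.87, and at 100 nM they were -1.83, -1.29, 1.505, 0.56 and -0.65, and all passed the test. TUBB3 differed only at 100 nM, by 0.55, and its values at the higher doses were 0.41 and 0.07 (adjusted p = 0.082 and 0.38). TUBA4A differed only at 100 nM (-0.86) and was at 0.03 with 10000 nM (adjusted p = 0.72). The counts were 5 higher and 5 lower at 100 nM, beside 35.8% and 29.7% of all genes, 3 and 3 at 1000 nM, beside 38.9% and 27.9%, and 3 and 4 at 10000 nM, beside 47.0% and 41.4%. Scaled to the mitochondrial mRNAs, TUBB was lower with homoharringtonine at 10000 nM by -0.51 and passed, TUBA1B was at -0.07 and did not pass, and TUBB6 (0.77) and TUBA1C (2.31) turned higher. On that scale TUBB4B and TUBB2A were higher at each dose.

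Linear trends over the 3 doses, as log2 change for each 10-fold step in dose within the 9 treated wells, separated the compounds further. With homoharringtonine, 7 genes had a downward trend and the other 3 did not pass, beside 23.1% of all genes downward and 21.3% upward. The steepest was TUBB6 at -0.57 ± 0.10 (SE, edgeR, adjusted p = 0.001), then TUBB3 at -0.46, TUBA1B at -0.40, TUBA1C at -0.36, TUBB at -0.30, TUBB4B at -0.22 and TUBA4A at -0.21. TUBA1A (0.03), TUBB2A (-0.17) and TUBB2B (-0.16) did not pass. With triptolide, 5 genes had a downward trend and 1 an upward one, beside 17.7% and 6.40% of all genes. TUBB4B was at -0.97 ± 0.10 (adjusted p = 6.7e-05), TUBB2A at -0.86, TUBA4A at -0.68, TUBA1A at -0.64 and TUBB3 at -0.28, and TUBB was at 0.26 ± 0.085 (adjusted p = 0.041), which turned to -0.29 when scaled to the mitochondrial mRNAs. Leaving out 1 replicate of each dose gave 4 to 8 trends with homoharringtonine, 4 of them without replicate 2, and 4 to 5 with triptolide.

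**Figure D3:**
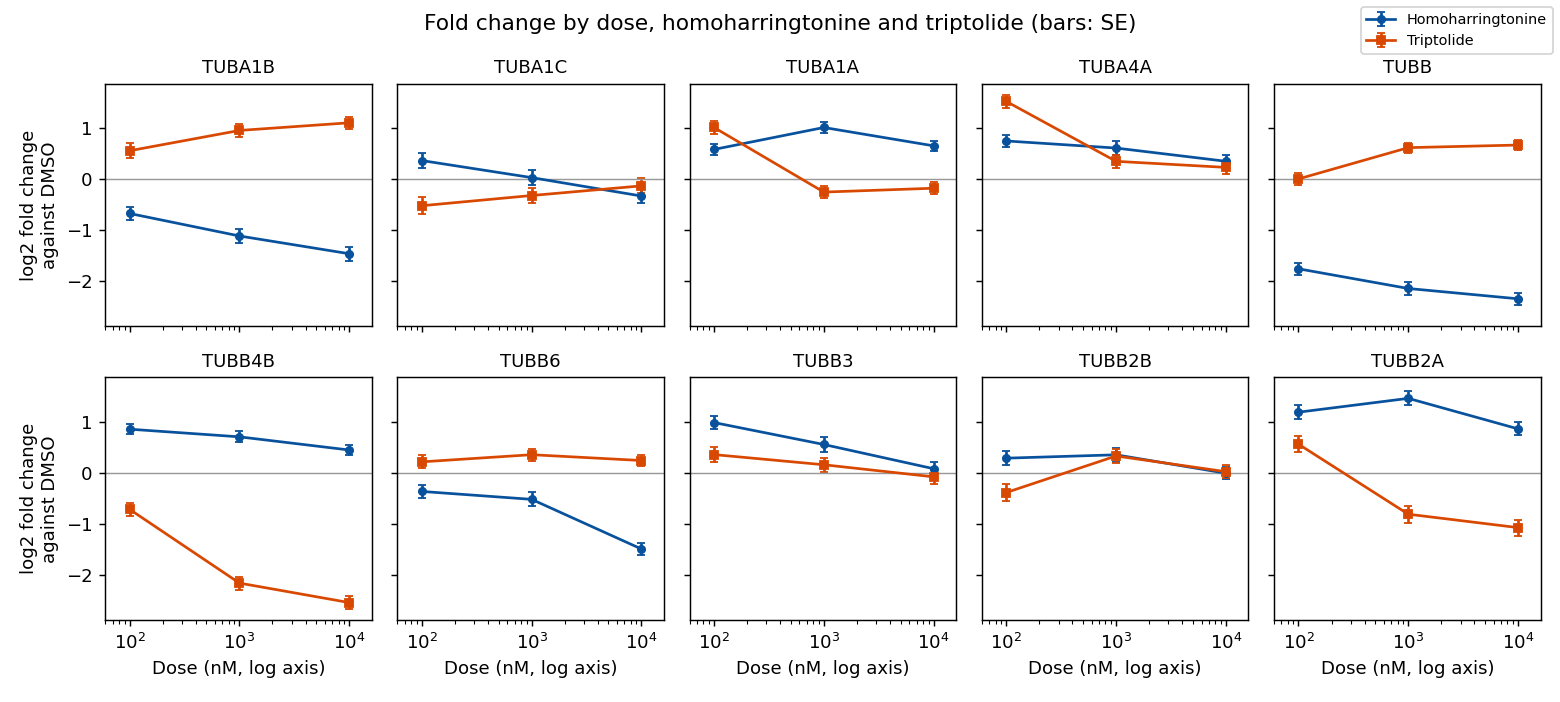
log2 fold change against DMSO (vertical axis) by dose in nM (horizontal log axis) for each tubulin gene, with homoharringtonine in blue circles and triptolide in orange squares, and bars of 1 SE. The curves of TUBB, TUBA1B and TUBB4B stay apart at every dose, while those of TUBB2B and TUBB3 lie close at 10000 nM.

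The difference between the trends was tested in 1 model over both compounds, as homoharringtonine minus triptolide. It passed for 8 genes, with 4 positive and 4 negative values, beside 21.9% of all genes positive and 19.2% negative. TUBB4B had 0.695 ± 0.13 (SE, edgeR, adjusted p = 2.6e-04), with both trends downward, and TUBA1B had -0.67 ± 0.10 (adjusted p = 4e-05), where the trend with triptolide, 0.21, had not passed (adjusted p = 0.081). TUBB had -0.63 ± 0.11 (adjusted p = 1.1e-04). Scaled to the mitochondrial mRNAs, 4 genes passed, and 4 passed without replicate 3.

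The make-up of the tubulin mRNA pool is a measure that no scale between wells can move, and it is given as a description with no test. TUBB made up 47.4 ± 2.95% (SD, n = 18) of the summed beta TPM in DMSO. It was 14.05 ± 1.001%, 12.2 ± 0.719% and 13.3 ± 0.634% (n = 3) with the rising doses of homoharringtonine and 51.8 ± 3.09%, 69.9 ± 3.08% and 74.4 ± 0.535% with those of triptolide. TUBB4B went from 31.9 ± 1.36% in DMSO to 62.6 ± 0.492% with 10000 nM homoharringtonine and 5.45 ± 0.44% with 10000 nM triptolide. The ratio of TUBB4B to TUBB TPM was 0.583 to 0.895 in DMSO wells, 4.42 to 4.86 with 10000 nM homoharringtonine and 0.0664 to 0.0792 with 10000 nM triptolide. The highest DMSO ratio came from the shallow well, and the next highest was 0.752. The wells of these groups do not overlap in this ratio.

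Among the alpha genes, TUBA1B made up 62.9 ± 1.66% of the summed alpha TPM in DMSO, 42.1 ± 0.948% with 10000 nM homoharringtonine and 79.7 ± 1.16% with 10000 nM triptolide. TUBA1C held 34.5 ± 2.12%, 50.8 ± 0.545% and 18.8 ± 1.09% in the same groups, so that it exceeded TUBA1B per length with homoharringtonine. In TMM-scaled counts, with no division by length, TUBA1B stayed above TUBA1C there, at 1517 against 1098 CPM. The summed alpha level was 6693 ± 779 TPM in DMSO, 3828 ± 53.6 TPM with 10000 nM homoharringtonine and 6746 ± 61.1 TPM with 10000 nM triptolide. The summed beta level was 4197.5 ± 282 TPM, 3079.9 ± 106 TPM and 2533 ± 38.6 TPM. The ratio of alpha to beta TPM was 1.60 ± 0.175 in DMSO, 1.24 ± 0.0352 with homoharringtonine and 2.66 ± 0.0438 with triptolide at that dose. The shallow DMSO well had the lowest alpha sum and alpha to beta ratio, 4080 TPM and 1.09, and it is included in the DMSO SDs. The next lowest DMSO well was at 5808 TPM and 1.31. These shares, sums and ratios are per length, so the short mean length that RSEM gave TUBA1C enters them.

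**Figure D4:**
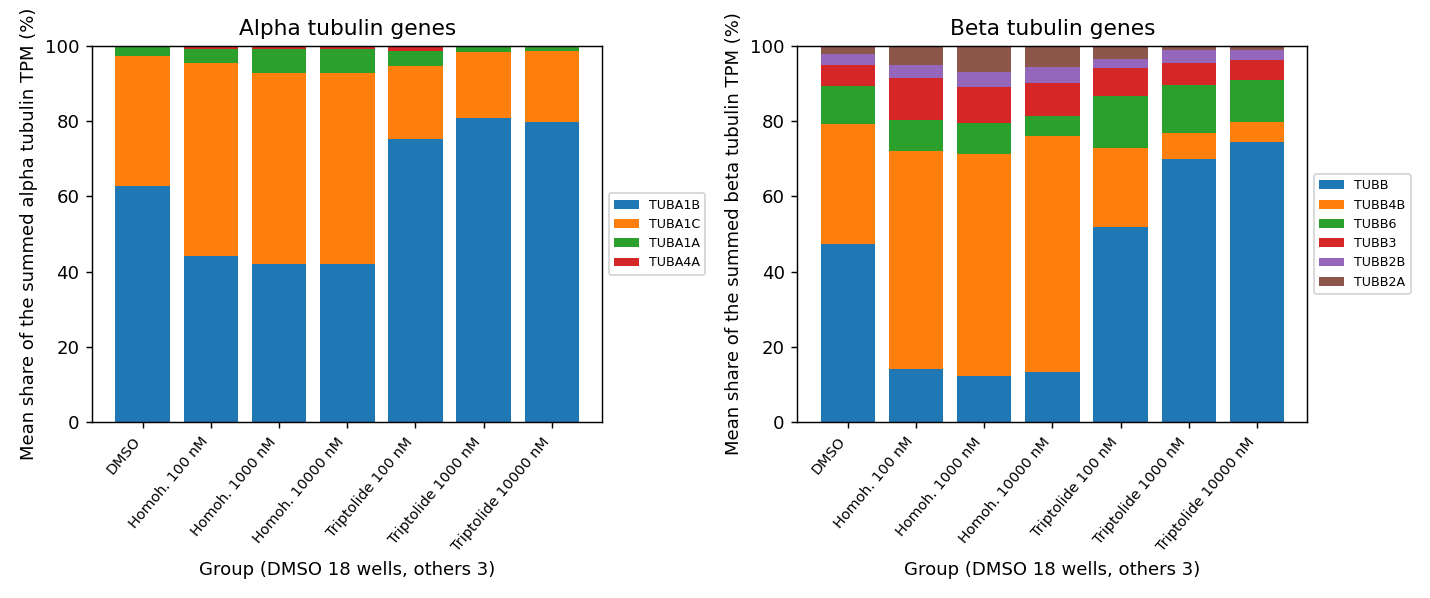
Mean share of each gene in the summed TPM of the 4 alpha genes (left) and the 6 beta genes (right), in percent, for DMSO (18 wells) and the doses of homoharringtonine and triptolide (3 wells each). Among the beta genes, TUBB4B holds 62.6% with 10000 nM homoharringtonine and TUBB holds 74.4% with 10000 nM triptolide.

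For the other 4 compounds, 8 of the gene values in their 12 comparisons passed the test. The count was 15 with DESeq2, 18 with the GC covariate, 19 with the replicate block and 5 without replicate 2 or replicate 3. MK-2206 at 10000 nM raised TUBA1A, whose wells were at 237, 246 and 259 TPM, above all DMSO wells, with a log2 fold change of 0.70 ± 0.10 (SE, edgeR, adjusted p = 1.4e-04), in a comparison where 3.07% of all genes were called. At 1000 nM and 100 nM edgeR called 0 tubulin genes, as did DESeq2, where edgeR called 1.52% and 0.0648% of all genes. At an unadjusted p under 0.05 there were 2 and 1 tubulin genes, beside 2051 of 18526 and 1376 of 18530 of all genes (edgeR). Pyrazolanthrone at 10000 nM lowered TUBB3 and TUBA4A, by 0.89 and 0.63 on the log2 scale, where 7.65% of all genes were called. The TUBB3 wells were at 121.5, 129 and 129.5 TPM, below the DMSO range of 185 to 290.0 TPM. At 100 nM and 1000 nM edgeR called 0 tubulin genes and DESeq2 2 and 0, where edgeR called 4.77% and 0% of all genes. At an unadjusted p under 0.05 there were 3 and 2 tubulin genes, beside 4217 of 18410 and 1033 of 18469 of all genes (edgeR).

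Nilotinib at 10000 nM lowered TUBB3, to 139, 153 and 153 TPM, by 0.69 ± 0.14 on the log2 scale (edgeR, adjusted p = 0.0011), and also TUBA4A by 0.44 and TUBB4B by 0.31, where 14.4% of all genes were called. The calls of TUBA4A and TUBB4B were lost without replicate 1 or 2 (TUBA4A -0.34 and -0.48, TUBB4B -0.26 and -0.32), and that of TUBB4B also without replicate 3 (-0.38). At 100 nM, TUBA1A was lower (-0.48) and TUBB6 higher (0.52), beside 9.08% of all genes. Both calls were lost without replicate 3 (-0.39 and 0.53), and that of TUBB6 also without replicate 2 (0.39). At 1000 nM edgeR called 0 tubulin genes and DESeq2 1, where edgeR called 3.95% of all genes. At an unadjusted p under 0.05 there were 2 tubulin genes, beside 2880 of 18529 of all genes (edgeR). With miglitol, edgeR called 0 of the 30 gene values, as did DESeq2, and 0% of all genes at each dose. At an unadjusted p under 0.05 were 9 of the 30, with 1, 2 and 6 at 100, 1000 and 10000 nM. Of all genes, 944 of 18496, 1563 of 18477 and 4195 of 18519 were under it (edgeR). At 10000 nM the log2 fold changes of the 10 tubulin genes were all negative, at -0.42 to -0.12.

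RSEM also gives a mean transcript length for each gene and well, which moves when the mix of isoforms moves. For homoharringtonine and triptolide at 10000 nM, 20 exact two-sided permutation tests of this length against DMSO were made. With all 18 DMSO wells 0 passed after Benjamini-Hochberg adjustment and 2 were under 0.05 before it, but without the shallow DMSO replicate 10 the count was 6, so that 1 well decided it. The length of TUBB3 mRNA was 1661 ± 1.38 bases (SD, n = 3) with homoharringtonine against 1734 ± 55.1 bases (n = 18) in DMSO (exact permutation test, p = 0.041, adjusted p = 0.39). Without that well, DMSO was at 1747 ± 6.60 bases (n = 17), and the difference of -85.6 bases passed (exact permutation test, p = 0.00088, adjusted p = 0.0044), as did the 24.0 bases by which TUBB3 was longer with triptolide (exact permutation test, adjusted p = 0.0044). TUBB2A was then shorter with homoharringtonine by 6.5 bases and longer with triptolide by 13.8 bases (exact permutation test, adjusted p = 0.047 and 0.0044). TUBB4B was shorter by 0.6 and 1.2 bases (exact permutation test, adjusted p = 0.047 and 0.0044). For TUBB, the length was 2669.7 bases with homoharringtonine and 2669.9 bases in DMSO.

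The genes of the autoregulatory decay pathway were measured in the same fits. This and the following lists were chosen by function, with earlier results of these data known. All list values are on TMM-scaled counts, and those with triptolide can change direction on another scale, as they did for tubulin genes. At 10000 nM 36.7% of all genes were higher and 37.2% lower with homoharringtonine, and 32.2% and 39.7% with triptolide. TTC5, which recognizes the nascent tubulin chain, averaged 29.5 TPM in DMSO. With 10000 nM homoharringtonine it rose by 0.27 ± 0.08 (log2, SE) and SCAPER, its partner that recruits the deadenylase, by 1.22 ± 0.17 (edgeR, adjusted p = 0.0037 and 5e-07). With 100 nM triptolide TTC5 fell by 1.21 and SCAPER by 0.89, while with 10000 nM their log2 fold changes were -0.06 and 0.34 (adjusted p = 0.55 and 0.085). The 100 nM group includes the shallow library of 70767 counts, and the values without it are not given here. In TPM, the means of TTC5 and SCAPER with 10000 nM triptolide were 13.3 and 4.21, against 29.5 and 5.46 in DMSO. Of the 11 CCR4-NOT subunits, which shorten mRNA tails, 6 rose and the other 5 did not pass with 10000 nM homoharringtonine, with a median log2 fold change of 0.21. With 10000 nM triptolide 1 rose and 9 fell, with a median of -1.83, CNOT6L at -3.99 and CNOT8 at -2.71 among them.

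The factors that fold tubulin and build the dimer were also followed. Of the 5 tubulin cofactors measured of 6 listed, 4 rose and 1 fell with 10000 nM triptolide. The gene that fell was TBCC, which acts in the last step of dimer assembly, at 25.2 TPM in DMSO and 0.23 TPM with triptolide (log2 fold change -6.05 ± 0.23, edgeR, adjusted p = 2.9e-17). With 10000 nM homoharringtonine TBCC rose by 0.91, and TBCB and ARL2 fell by 0.90 and 0.91. The 8 subunits of the CCT chaperonin, which folds tubulin, had 6 genes higher and 2 not called with triptolide and 3 higher and 2 lower with homoharringtonine at 10000 nM. Prefoldin, which hands new tubulin to CCT, had 4 of 6 higher and 2 not called with triptolide, and 3 higher and 1 lower with homoharringtonine. Medians of these lists with triptolide were 1.19 for the cofactors, 0.52 for CCT and 0.74 for prefoldin, beside -0.17 for all genes. These directions are those of TMM-scaled counts, and for CCT and prefoldin not all of them held in TPM. Those of the cofactors did hold in mean TPM. With 10000 nM triptolide TBCA was at 110 against 104 in DMSO, TBCB at 402 against 283, TBCD at 145 against 107 and ARL2 at 134 against 83.3. In mean TPM with 10000 nM triptolide, TCP1 (257 against 317 in DMSO), CCT2, CCT4, CCT5 and CCT6A were below DMSO, and CCT3, CCT7 and CCT8 above it. Of prefoldin, PFDN1, PFDN4 and PFDN6 were below DMSO in mean TPM, and PFDN2, VBP1 and PFDN5 were not.

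Of the 8 tubulin modifying enzymes, 2 rose and 4 fell with 10000 nM homoharringtonine. TTL, which puts the final tyrosine back on alpha tubulin, fell by 2.32 ± 0.12 (log2, SE), and VASH1, which removes it, by 4.67 ± 0.17, from 15.99 to 0.877 TPM (edgeR, adjusted p = 1.9e-14 and 3.8e-17). ATAT1, the alpha tubulin acetyltransferase, rose by 1.28. With 10000 nM triptolide 6 rose and 2 fell, the latter VASH1 (-1.06) and VASH2 (-0.47). In mean TPM at that dose, TTL (68.5 against 78.6 in DMSO), SVBP and SIRT2 were below DMSO, and HDAC6, ATAT1 and AGBL5 above it. Of the 16 microtubule regulators, 9 rose and 5 fell with homoharringtonine and 6 rose and 8 fell with triptolide. The severing enzyme subunit KATNA1 was at 26.7 TPM in DMSO, 146 TPM with homoharringtonine (2.50 ± 0.09) and 4.48 TPM with triptolide (-1.73 ± 0.13). KIF2C, a depolymerizing kinesin, was at 0.99 with homoharringtonine and -2.23 with triptolide.

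**Figure D5:**
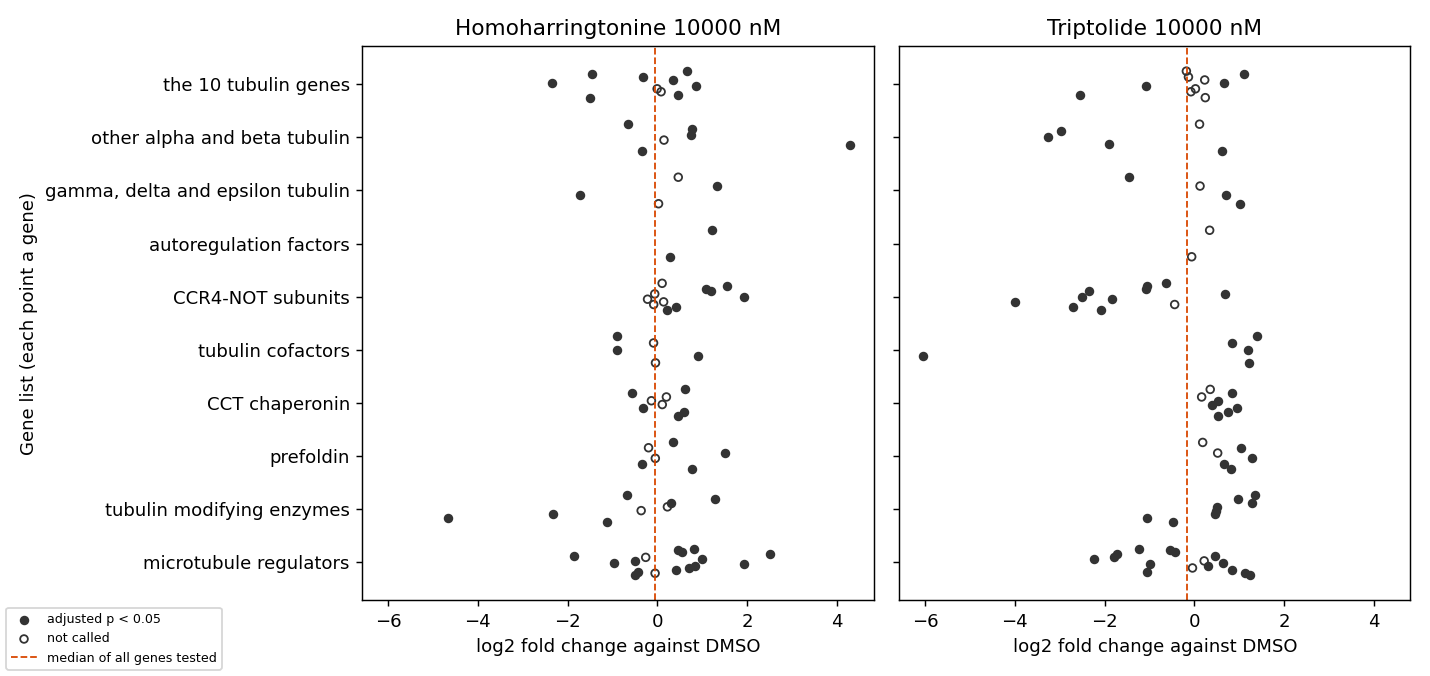
log2 fold change against DMSO on TMM-scaled counts (horizontal axis) at 10000 nM of homoharringtonine (left) and triptolide (right). Rows are the 10 tubulin genes and lists of related genes. Each point is a gene, filled where the adjusted p was under 0.05, and the dashed line is the median of all genes tested (-0.05 and -0.17). The CCR4-NOT subunits lie mostly left of the line with triptolide, with a median of -1.83.

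The other tubulin genes were mostly weak. Of 8 further alpha and beta genes, 6 could be tested with 10000 nM homoharringtonine, where 3 were higher and 2 lower, and 5 with 10000 nM triptolide, where 1 was higher and 3 lower. TUBA3C was listed at 359 ± 40.3 TPM (SD, n = 18) in DMSO, and whether reads of the other alpha genes are in this value was not tested. TUBA3D and TUBA3E fell by 2.98 and 3.27 (log2) with 10000 nM triptolide and rose by 0.78 and 0.76 with homoharringtonine. Gamma tubulin, which nucleates microtubules, is not part of the dimer. Its main gene TUBG1 was at 234 TPM in DMSO and 74.1 TPM with 10000 nM homoharringtonine, a fall of 1.73 ± 0.15, and at 225 TPM with triptolide (0.70 ± 0.12). The 50 annotated alpha and beta pseudogenes together summed to at most 14.9 TPM in a DMSO well.

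The genes whose pattern over the 19 groups was most like that of TUBB were ICMT, TMEM109 and RTL8A, by Pearson correlation of group means of log2 CPM (r = 0.993, 0.992 and 0.992). For TUBA1B they were PGAM1, VTI1B and ARF3 (r = 0.987, 0.987 and 0.986). These values describe 19 group means that are set mostly by the homoharringtonine and triptolide groups. For ICMT the mean was 132 CPM in DMSO, 20.7 with 10000 nM homoharringtonine and 263 with 10000 nM triptolide.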

How the data were processed

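Expression was measured by population RNA-seq (poly(A) selection, stranded kit) in 72 wells. The submitters' processing notes name GRCh38, HTSeq, RSEM and DESeq2, and the version of RSEM and the annotation are not given in the sources used here. The deposited expected counts are RSEM's estimated counts per gene, neither normalized nor always whole, and the deposited TPM values were scaled by the authors' RSEM run to transcript length and a fixed sum. The mean transcript length of a gene, in bases, is also RSEM's. Symbols came from GENCODE release 44, which held 56104 of 60371 identifiers.

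Expected counts were rounded and tested with edgeR 4.0.16 in R 4.3.3 (TMM, filterByExpr with a smallest count of 10, quasi-likelihood F test, Benjamini-Hochberg adjustment over all genes tested). The 3 wells of a treatment were set against the 18 DMSO wells, homoharringtonine with triptolide at each dose, and trends were fitted on log10 dose. Doses are those of the labels; 1 sentence of the study's methods gives another middle dose, while its results text gives the labels' dose. A gene was called at an adjusted p under 0.05. SE was taken as the absolute log2 fold change over the square root of F. Transcript lengths were compared by exact permutation in Python 3.11.15. Alternatives were DESeq2 1.42.0, limma 3.58.1 on log2(TPM + 1), other scalings and filters, a GC covariate, a replicate block and left-out wells. Isotype shares without the shallow libraries and transcript lengths at the lower doses were added after seeing the data and are not printed. The fits were tested on simulated counts, where edgeR recovered 200 of 200 changed genes among 14323, with 6 false calls. Far more genes were called with homoharringtonine and triptolide, so the simulation does not check the scaling there.

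All 10 tubulin genes are named. List genes are named where they passed at 10000 nM or where a result turns on their role. The genes and lists were chosen with earlier results of these data known. TBCE found no match by symbol. The FPKM and effective length columns were not used.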

Additional observations from a re-analysis of the deposited data

Results flagged for a closer look

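For 8 of the 10 tubulin genes, the dose trend differed between homoharringtonine and triptolide by the test of the difference itself (edgeR, adjusted p under 0.05). As homoharringtonine minus triptolide, in log2 for each 10-fold step in dose, the values were 0.61 for TUBA1A, -0.67 for TUBA1B, -0.55 for TUBA1C, 0.42 for TUBA4A, -0.63 for TUBB, 0.63 for TUBB2A, 0.70 for TUBB4B and -0.58 for TUBB6. Without the 2 shallow triptolide libraries, 8 genes passed as well. Scaled to the mitochondrial mRNAs, 4 passed.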

How the results depend on the processing

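Of 1050 alternative values for the 97 called differences of single tubulin genes, 875 kept direction and call, 137 lost the call and 38 reversed. With the 3 other scalings left out (library sizes, mitochondrial mRNAs and log2(TPM + 1)), 701 of 803 kept both, 96 lost the call and 6 reversed. Causes were not tested. Taking CPM in place of TPM moved 60 of 72 levels relative to DMSO, of single genes and family sums with homoharringtonine and triptolide, by more than 1 SD between wells.

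The number of tubulin genes called with triptolide at 10000 nM was 4, and it was 9 with library sizes only, 10 with scaling to the mitochondrial mRNAs and 9 on log2(TPM + 1). At 1000 nM it was 7, and 4 with no filter, 4 with the replicate block and 1 where a 2-fold change was also required. At 100 nM it was 8, and 2 with the 2-fold rule. With homoharringtonine the counts of 8, 9 and 9 at 10000, 1000 and 100 nM became 3, 4 and 5 with the mitochondrial mRNAs and 3, 4 and 2 with the 2-fold rule. For homoharringtonine against triptolide at 100 nM, 10 became 6 with at least 10 counts in every well. With the mitochondrial mRNAs, the triptolide trends went from 6 to 10, the homoharringtonine trends from 7 to 4 and the trend differences from 8 to 4. For the other 4 compounds, 8 calls became 15 with DESeq2, 19 with the replicate block, 18 with the GC covariate and 0 with the 2-fold rule.

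Leaving out 1 replicate gave 4 to 4, 5 to 7 and 5 to 7 calls for triptolide at 10000, 1000 and 100 nM, with 5 at 100 nM without replicate 1 or 3. It gave 6 to 7, 8 to 9 and 7 to 9 for homoharringtonine, 6 to 10, 5 to 7 and 7 to 8 for the direct comparison at 100, 1000 and 10000 nM (6 without replicate 1), 4 to 5 and 4 to 8 for the triptolide and homoharringtonine trends, 4 to 7 for their difference and 5 to 9 for the other compounds, where 5 remained without replicate 2 or 3.

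Treated wells were correlated with DMSO wells of the same replicate number. In 0 of 18 groups was every such correlation over 0.1, and the mean was -0.062 between same-numbered wells and 0.026 between others. With 2 or 3 pairs for each group, single values ran from -0.903 to 0.894. Treated groups were not compared with each other, so this cannot decide whether replicate numbers pair the wells. The block used only the DMSO wells that share a number with a treated well. With the replicate block, triptolide gave 5, 4 and 6 calls at 10000, 1000 and 100 nM, homoharringtonine 6, 6 and 8, and the trend difference 7.

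Reversed on the scale of the mitochondrial mRNAs were, for triptolide at 10000 nM, TUBA1B -1.70, TUBA4A -2.59, TUBB -2.13, TUBB2B -2.79 and TUBB6 -2.57, at 1000 nM TUBA1B -1.53, TUBA4A -2.13, TUBB -1.85, TUBB2B -2.13, TUBB3 -2.32 and TUBB6 -2.11, and at 100 nM TUBA1A -0.55, TUBA1B -1.0, TUBA4A -0.15, TUBB -1.54, TUBB2A -1.06, TUBB3 -1.28 and TUBB6 -1.36. On that scale the trend difference of TUBA1C, counted among the reversed, came to 0.00. The triptolide trends of TUBA1B (-0.35), TUBA1C (-0.43), TUBB (-0.29) and TUBB2B (-0.38) and TUBA1A with nilotinib at 10000 nM (-0.65) also reversed. So did, for homoharringtonine against triptolide, TUBA1A 1.06, TUBA1B 0.21, TUBA4A 0.79 and TUBB6 0.90 at 100 nM, TUBA1B 0.34 and TUBB6 1.55 at 1000 nM, and TUBA1C 2.31, TUBB2B 2.47 and TUBB6 0.77 at 10000 nM. With library sizes only, TUBA4A -0.30, TUBB2B -0.51 and TUBB6 -0.29 with triptolide at 10000 nM, TUBA4A -0.10, TUBB2B -0.12 and TUBB6 -0.09 at 1000 nM, TUBB -0.23 at 100 nM, and TUBA1C 0.30 and TUBB2B 0.46 in the direct comparison at 10000 nM reversed. On log2(TPM + 1), TUBA4A -0.47, TUBB -0.07, TUBB2B -0.71 and TUBB6 -0.56 reversed with triptolide at 10000 nM, TUBA4A -0.25, TUBB -0.03, TUBB2B -0.32, TUBB3 -0.52 and TUBB6 -0.26 at 1000 nM, and TUBB -0.51 and TUBB3 -0.20 at 100 nM. With at least 10 counts in every well, TUBA1B -0.09, TUBB -0.64, TUBB2A -0.12, TUBB3 -0.31 and TUBB6 -0.44 with triptolide at 100 nM and TUBA1A 0.24 and TUBB6 0.07 in the direct comparison at 100 nM reversed. This filter keeps the genes that the shallow library could count. With the replicate block TUBB3 with triptolide at 100 nM was at -0.04, and with the GC covariate TUBB2B with homoharringtonine at 10000 nM was at 0.41. The reversed values listed here, unlike the 38 counted above, include differences not called in the main fit. TUBB2B with triptolide at 10000 nM, for one, was at 0.02 there (edgeR, adjusted p = 0.87).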
